A study of Homo sapiens with 4 samples.

Results

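PPIF and 6 other genes long discussed as parts of the mitochondrial permeability transition pore were described in PC9 cells with and without knockdown of TPX2, as 7 of the 18134 genes quantified. The members were taken by gene symbol: PPIF, the voltage-dependent anion channel genes VDAC1, VDAC2 and VDAC3, and the adenine nucleotide translocator (ANT) genes SLC25A4, SLC25A5 and SLC25A6. PPIF was selected on its TPM and read counts, which were higher in the knockdown libraries of this same comparison, so its difference between the groups is given as a description without a test. The other 6 genes were included for their membership of the pore literature and were tested.

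PC9 is an established human lung adenocarcinoma (LUAD) cell line, and TPX2 is a microtubule-associated protein that activates the kinase Aurora A on the mitotic spindle. RNA was sequenced from PC9 cells that carried a short hairpin RNA against TPX2 (shTPX2, 2 libraries) or a negative-control hairpin (shNC, 2 libraries). The cells of all 4 libraries had been transduced with lentivirus, selected with antibiotic and grown in DMEM with serum. The labels place all libraries in 1 batch and do not say whether the lines were clonal or whether the libraries came from separate cultures, so the p-values measure only the spread between these libraries. Totals ran from 20906441 to 21972583 expected counts per library, and 14048 genes passed the filter on low counts.

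The permeability transition pore is a non-selective channel of the mitochondrial inner membrane that opens under high matrix calcium and oxidative stress, which collapses the membrane potential and can end in cell death. Cyclophilin D, the peptidyl-prolyl isomerase of the mitochondrial matrix encoded by PPIF, sensitises the pore to calcium and is the target through which cyclosporin A delays its opening. The channel itself is debated: the adenine nucleotide translocators of the inner membrane and the ATP synthase are the main candidates, while the VDAC porins of the outer membrane belonged to older models and are now mostly seen as dispensable.

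TPX2 was measured at 55.0 and 111.9 TPM (transcript abundance scaled to gene length and library size) in the shNC libraries and at 43.4 and 43.8 TPM in the shTPX2 libraries. Both knockdown libraries lay below both controls, but shNC 1 was close to them, and the log2 fold change of −0.81 (SE 0.32) did not pass edgeR's quasi-likelihood test (adjusted p = 0.618) and was −0.24 without shNC 2. TPX2 was lower at an unadjusted p under 0.05 and met the criteria the study used for differential expression. The mean TPM in shTPX2 was 0.522 times that in shNC (0.466 by the authors' group means). Of 11 epithelial markers, 8 had at least 1 TPM in every library, among them the keratin KRT8 at 8228 to 11388 TPM and EPCAM at 201 to 293 TPM, whereas the lung lineage factor NKX2-1 reached 1.55 TPM at most. The leukocyte genes PTPRC, CD3E and CD79A stayed under 1 TPM while CD68, which tumour cells can also express, lay at 126 to 220 TPM. CD14 lay at 6.4 to 27.3 TPM and LYZ at 1.11 to 2.64 TPM. The endothelial genes CDH5 and PECAM1 lay at 14.4 to 30.5 and 4.2 to 14.4 TPM, and the fibroblast gene COL1A1 at 5.72 to 12.0 TPM. In all, 3 of 6 leukocyte markers, 2 of 4 endothelial markers and 1 of 6 fibroblast markers reached 1 TPM in every library.

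The proximal promoter of PPIF is shown because PPIF was the member with the large difference in level. It covers the 250 bases before the annotated start on the plus strand of chromosome 10 (GRCh38.p14, RefSeq, chr10:79347219-79347468), and the capitals mark a CCAAT box motif at 32 to 28 bases before the start.
PPIF promoter: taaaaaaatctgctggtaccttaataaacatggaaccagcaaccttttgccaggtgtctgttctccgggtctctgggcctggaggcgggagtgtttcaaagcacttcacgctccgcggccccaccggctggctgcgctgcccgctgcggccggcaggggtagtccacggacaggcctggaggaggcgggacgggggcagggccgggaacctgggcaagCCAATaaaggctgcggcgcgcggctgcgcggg

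PPIF itself spans bases 79347469 to 79355334 of chromosome 10. In windows of 300 bases around the starts, searched on both strands, CCAAT was present in 4 of the 6 members with a window (PPIF, VDAC1, SLC25A4 and SLC25A6) and in 34.6% of all 35116 RefSeq promoter windows. The GC box GGGCGG was present in VDAC1, SLC25A5 and SLC25A6 and in 45.0% of all windows, and TATAAA was present in SLC25A5 and in 11.5% of all windows. The E box CACGTG (7.26% of all windows), the E2F motifs TTTGGCGC (0.652%) and TTTCCCGC (1.63%), the palindromic NRF1 motif (5.78%), the AP-1 motif TGANTCA (7.71%) and the cyclic AMP response element TGACGTCA (1.85%) were absent from these letters in all 6. The PPIF window had a GC content of 64.7% and 26 CpG, against medians of 58.7% and 14 over all windows, and the GC content of the other 5 ran from 60.7% for VDAC2 to 75.7% for SLC25A6.

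A stretch of the coding sequences of SLC25A5 and SLC25A6 is shown because levels of close paralogues can only be compared where reads can be told apart. The capitals mark the longest run shared by the 2 genes, which is 29 bases long and lies at coding bases 85 to 113 (GENCODE v29).
SLC25A5: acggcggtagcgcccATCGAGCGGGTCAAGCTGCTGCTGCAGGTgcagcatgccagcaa
SLC25A6: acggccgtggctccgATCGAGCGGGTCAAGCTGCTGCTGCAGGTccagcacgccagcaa

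The ANT coding sequences were 77.2% to 78.7% identical to each other and the VDAC coding sequences 66.3% to 67.2%. No 150-base window, the length of the reads, of 6 of the members' coding sequences was found in the transcript of another gene. The exception was VDAC2, of which 346 of 778 windows (44.5%) also occurred in AC007318.1, so by this check its level was less certain than the others. The effective length implied by its counts and FPKM values also varied between libraries by 1.31%, against at most 0.244% for the other members. Copies under the same gene name were not counted as another gene. The check therefore does not cover a second copy of SLC25A6, which lies in the pseudoautosomal region.

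PPIF was measured at 109.7 and 105.1 TPM in the shNC libraries and at 215 and 229 TPM in the shTPX2 libraries. Both knockdown libraries lay far above both controls and the groups did not overlap. The means were 107 ± 3.25 TPM in shNC and 222 ± 9.66 TPM in shTPX2 (SD, n = 2), a ratio of 2.07, from expected counts of 2517 and 2391 against 5198 and 5297. On the counts the fitted log2 fold change was 1.17 (SE 0.17), a fold of 2.25, and it stayed between 1.11 and 1.23 when each library was left out. The distance between the nearest libraries of the 2 groups was 1.10 on the log2 scale of CPM (counts scaled to library size with TMM factors), and replicates differed by 0.10 in shNC and 0.05 in shTPX2. These values chose PPIF and are no test of it. In bulk RNA, more transcript per cell and more cells with the transcript cannot be told apart.

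**Figure D1:**
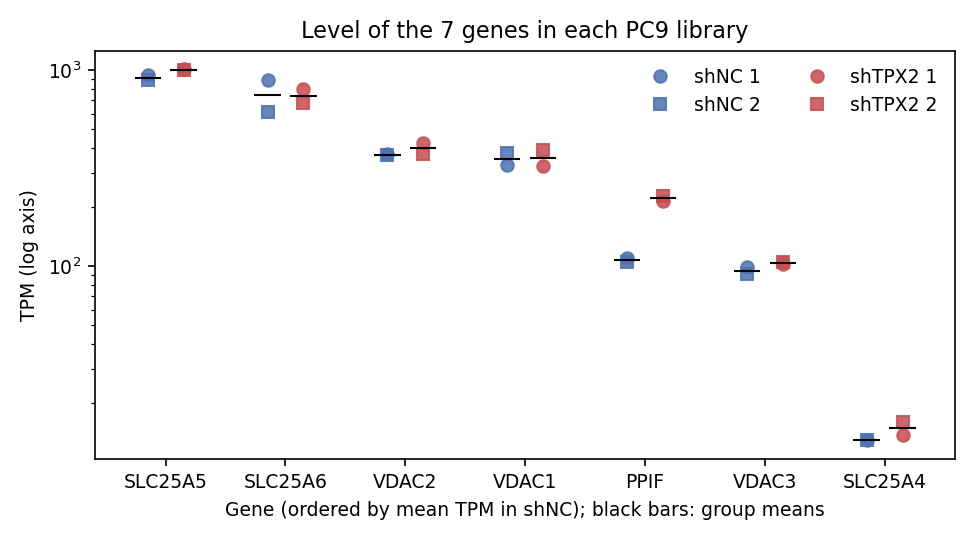
TPM of the 7 genes (log axis) in each of the 4 libraries, blue for shNC and red for shTPX2, with circles for replicate 1, squares for replicate 2 and black bars for group means. PPIF differed by group (105.1 to 109.7 against 215 to 229 TPM), whereas the points of the other 6 genes lay close together or overlapped.

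The order of levels in shNC, on the per-length scale of TPM, was SLC25A5, SLC25A6, VDAC2, VDAC1, PPIF, VDAC3 and SLC25A4. SLC25A5 and SLC25A6 were not separated beyond their spread, nor were VDAC2 and VDAC1. In shTPX2 the order was the same by group mean, and there SLC25A5 lay above SLC25A6 in both libraries while VDAC2 and VDAC1 again overlapped. PPIF lay just above VDAC3 in shNC, 105.1 to 109.7 TPM against 90.8 to 99.0 TPM. In shTPX2 it lay far above VDAC3, which was at 103 and 105 TPM.

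The VDAC genes encode the porins through which ATP, ADP and other metabolites cross the outer membrane. VDAC1 (bases 133971871 to 134114540 of chromosome 5), the best-known isoform, was measured at 329.7 and 376 TPM in shNC and at 324 and 389 TPM in shTPX2. The lowest and the highest value were both from knockdown libraries, and the log2 fold change was 0.14 (SE 0.18, edgeR quasi-likelihood test, adjusted p = 0.875). VDAC2 (bases 75210170 to 75231448 of chromosome 10), which also holds the death effector BAK at the membrane, was measured at 374 and 367 TPM against 422 and 375 TPM. Its groups were separated by less than 1 TPM, with shTPX2 1 alone well above the rest. VDAC3, on chromosome 8, was measured at 99.0 and 90.8 TPM against 103 and 105 TPM, so both knockdown libraries lay slightly above both controls. The log2 fold changes of VDAC2 and VDAC3 were 0.24 (SE 0.18, edgeR adjusted p = 0.778) and 0.25 (SE 0.16, edgeR adjusted p = 0.737), and neither passed.

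The ANT genes encode the carriers that exchange matrix ATP for cytosolic ADP. SLC25A5 (ANT2, bases 119468444 to 119471396 of chromosome X), the form common in proliferating cells, was measured at 941 and 889 TPM in shNC and at 1009 and 997 TPM in shTPX2. The knockdown libraries were the higher pair, by 0.26 in log2 fold change (SE 0.18, edgeR adjusted p = 0.759). SLC25A4 (ANT1, bases 185143266 to 185150382 of chromosome 4), the heart and muscle form, was scarce, at 13.0 and 12.9 TPM against 13.8 and 16.0 TPM. Its knockdown libraries were again the higher pair, with a log2 fold change of 0.32 (SE 0.18, edgeR adjusted p = 0.702).

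SLC25A6 (ANT3, bases 1386152 to 1392113 of chromosome X, in the pseudoautosomal region) was measured at 891 and 609 TPM in shNC and at 801 and 679 TPM in shTPX2. Both knockdown values lay between the controls, which differed by 0.59 on the log2 CPM scale, against a median of 0.29 over the tested genes. Its log2 fold change was 0.10 (SE 0.25, edgeR adjusted p = 0.941), with the opposite sign without shNC 2 (−0.17) and without shTPX2 1 (−0.04), and the ratio of the mean TPM values was 0.987. No direction could be given for this gene.

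All 6 VDAC and ANT genes had a log2 fold change above 0 in the fit on counts, as did 48.9% of all 14048 tested genes, with 51.1% below 0. The median of the 6 was 0.24, against −0.01 over all tested genes. On the log2(TPM + 1) scale these medians were 0.12 and −0.10. All 6 lay above 0 on that scale, as did 4850 of the 14048 tested genes. None of the 6 passed an adjusted p under 0.05 or an unadjusted p under 0.05 by edgeR, DESeq2 or limma after voom. By edgeR no gene at all passed the adjusted threshold (0%), while 3.13% of genes were higher and 4.9% lower at the unadjusted one. DESeq2 called 0.235% higher and 0.555% lower after adjustment. In 4 of the 6 (VDAC2, VDAC3, SLC25A4 and SLC25A5) both knockdown libraries lay above both controls in CPM, which held for 19.4% of all tested genes (20.2% lay lower in the same way, 39.6% in either direction). None of the 6 met the criteria of the study for differential expression (limma after voom, a log2 fold change of 0.3 or more in size with an unadjusted p no larger than 0.1), which 6.24% of genes met as higher and 7.99% as lower. The study states a log fold change of at least 0.3 without a base and reports genes in both directions. Base 2 and either sign were therefore taken here. With 2 libraries in each group, an exact two-sided permutation test of a single gene cannot give a p below 0.33.

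**Figure D2:**
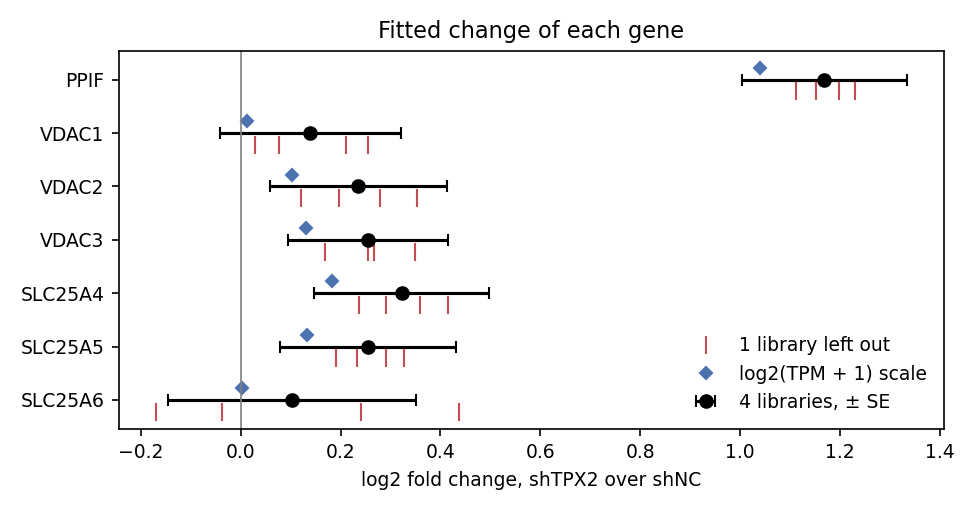
Log2 fold change of shTPX2 over shNC for the 7 genes: black points with bars for the edgeR fit ± SE, red ticks for the fits without 1 of the libraries and blue diamonds for the log2(TPM + 1) scale. PPIF lay at 1.17, whereas the other 6 lay between 0.10 and 0.32 and the red ticks of SLC25A6 fell on both sides of 0.

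The makeup of the 2 families differed less between the group means than between libraries of 1 group. The exception was the VDAC3 share, which was nearly equal in the shTPX2 libraries. VDAC1 provided 41.1% and 45.0% of the VDAC transcripts (by TPM) in shNC and 38.1% and 44.8% in shTPX2. VDAC2 provided 46.6% and 44.1% against 49.7% and 43.1%, and VDAC3 12.3% and 10.9% against 12.1% and 12.1%. VDAC2 was the larger share in replicate 1 of both groups and VDAC1 in replicate 2 of both. Within the ANT family, SLC25A5 provided 51.0% and 58.9% against 55.3% and 58.9%, SLC25A6 48.3% and 40.3% against 43.9% and 40.1%, and SLC25A4 under 1% in every library. All of these shares overlapped between the groups.

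The level of PPIF relative to both families was also higher in the knockdown. There were 13.7 and 12.6 PPIF TPM per 100 VDAC TPM in shNC and 25.3 and 26.3 in shTPX2. Per 100 ANT TPM, PPIF stood at 5.94 and 6.96 in shNC and at 11.8 and 13.5 in shTPX2. Both ratios were higher in both knockdown libraries, by 1.97 and 1.96 times on average. The summed VDAC level was 803 and 834 TPM against 849 and 869 TPM, and the summed ANT level was 1846 and 1511 TPM against 1824 and 1693 TPM. The ANT sums overlapped, and the VDAC sums differed by far less than PPIF did. As PPIF was chosen for its own difference, these ratios are descriptions.

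**Figure D3:**
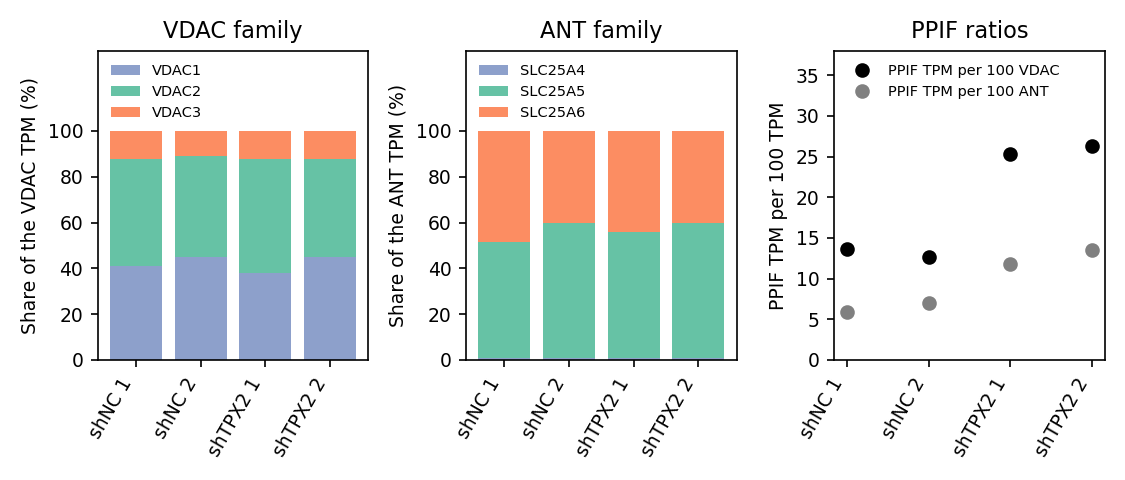
Left and middle, the share of each isoform in the VDAC and ANT totals (percent of TPM, stacked bars) in each library. Right, PPIF TPM per 100 TPM of the VDAC total (black) and of the ANT total (grey): the shares overlapped between the groups, and the PPIF ratios were 12.6 to 13.7 in shNC and 25.3 to 26.3 in shTPX2 for VDAC.

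The ATP synthase, the other candidate for the channel, was covered by 18 genes, all tested. All 18 had a log2 fold change above 0 on counts, with a median of 0.25, and 15 of 18 did so on the log2(TPM + 1) scale, with a median of 0.12. On that scale 4850 of all 14048 tested genes lay above 0. At an unadjusted p under 0.05, 3 were higher by edgeR and none was lower, against 3.13% and 4.9% of all tested genes, and none passed after adjustment. The criteria of the study were met by 5 as higher and none as lower, against 6.24% and 7.99% of all tested genes. ATP5PO, which encodes the oligomycin-sensitivity subunit (OSCP) to which cyclophilin D binds, was measured at 129.7 and 146 TPM in shNC and at 187 and 207 TPM in shTPX2. Both knockdown libraries lay above both controls, with a log2 fold change of 0.64 (SE 0.16, edgeR adjusted p = 0.575). The membrane subunit genes ATP5MF and ATP5ME had log2 fold changes of 0.48 (SE 0.17, edgeR adjusted p = 0.587) and 0.45 (SE 0.18, edgeR adjusted p = 0.621). ATP5F1B, the catalytic beta subunit and the most abundant of the list, was at 660 and 612 TPM against 701 and 689 TPM, a log2 fold change of 0.25 (SE 0.18, edgeR adjusted p = 0.770).

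Among 17 further partners and regulators of the pore, 13 had a log2 fold change above 0 and 4 below on counts, with a median of 0.22. On the log2(TPM + 1) scale 10 of 17 lay above 0, with a median of 0.08. By edgeR at an unadjusted p under 0.05 none was higher (3.13% of all tested genes) and 1 was lower (4.9%). That gene was CKMT1A, a mitochondrial creatine kinase, at 1.29 and 4.08 TPM in the controls and 0.83 and 0.66 TPM in the knockdown. The fitted log2 fold change of −1.71 (SE 0.64, edgeR adjusted p = 0.603) was −0.68 without shNC 2. The level of CKMT1A is uncertain because it has a near-identical copy, CKMT1B, and how reads were divided between them was not tested. CKMT1B was at 1.3 and 3.06 TPM in shNC and at 0.92 and 4.18 TPM in shTPX2. Its groups overlapped, with a log2 fold change of 0.26 (SE 0.75, edgeR adjusted p = 0.953), so no direction could be given for the 2 copies together. The chaperonin HSPD1, the most abundant of the list, was at 307 and 264 TPM against 342 and 309 TPM. Its knockdown libraries were higher by little (log2 fold change 0.31, SE 0.19, edgeR adjusted p = 0.728). The translocator protein TSPO, hexokinase HK2 and the death effector BAX had log2 fold changes of 0.26, 0.50 and 0.30 by edgeR. Besides CKMT1A, the genes below 0 were SIRT3 (−0.37), BAK1 (−0.15) and CKMT2 (−0.11). Both knockdown libraries of SIRT3 lay below both controls. None but CKMT1A passed an unadjusted p under 0.05. HK2 and BAX met the criteria of the study as higher and CKMT1A as lower, against 6.24% and 7.99% of all tested genes.

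Calcium uptake into the matrix is the main trigger of the pore. Of 13 calcium-handling genes, 7 had a log2 fold change above 0 and 6 below on counts (median 0.05), and the uniporter MCU stood at −0.01. On the log2(TPM + 1) scale the median of the list was −0.05. MICU3, a regulatory subunit of the uniporter, was low in all libraries, at 1.29 and 1.5 TPM in shNC and at 0.71 and 0.47 TPM in shTPX2. It was the only one of the list at an unadjusted p under 0.05 by edgeR, where 3.13% of all tested genes were higher and 4.9% lower. Its log2 fold change was −1.18 (SE 0.39, edgeR adjusted p = 0.579) on counts and −0.59 on the log2(TPM + 1) scale, where the added 1 shrinks differences at such low levels. The ratio of its mean TPM values was 0.423. GHITM, an inner-membrane protein of calcium and proton exchange, was the most abundant at 170 to 220 TPM and its groups overlapped.

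PPIF belongs to the cyclophilins, and 16 other members of that family were tested. Of these, 9 had a log2 fold change above 0 and 7 below, with a median of 0.04, and the largest log2 fold change above 0 was 0.39. PPIL1, a spliceosomal cyclophilin, had that value (SE 0.16, edgeR adjusted p = 0.621), at 47.9 and 49.2 TPM in the controls and 60.2 and 56.4 TPM in the knockdown. PPIC, a cyclophilin of the secretory pathway, was the lowest relative to control, at 86.7 and 102.7 TPM against 52.2 and 55.4 TPM. Its groups lay well apart (log2 fold change −0.69, SE 0.17), yet the edgeR adjusted p was 0.558. PPIA, the abundant cytosolic cyclophilin A, was at 3039 and 2605 TPM against 3065 and 2968 TPM, a log2 fold change of 0.21 (SE 0.19, edgeR adjusted p = 0.813). The difference between PPIF and these genes was not tested.

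The remaining lists covered the import, content and enzymes of mitochondria. Of 13 outer-membrane import and insertion genes, 10 had a log2 fold change above 0 on counts, with a median of 0.10. On the log2(TPM + 1) scale 6 of 13 did. TOMM40, the import channel, was at 112 and 107 TPM against 148 and 179 TPM and had a log2 fold change of 0.70 (SE 0.17, edgeR adjusted p = 0.567). MTCH1, an outer-membrane insertase and the most abundant of that list, had 0.06 (SE 0.19, edgeR adjusted p = 0.955). Of 14 biogenesis genes, 10 were above 0 on counts, with a median of 0.05, and 5 of 14 on the log2(TPM + 1) scale. Within that list SSBP1, which binds single-stranded mitochondrial DNA, had a log2 fold change of 0.45 (SE 0.17, edgeR adjusted p = 0.610). Citrate synthase (CS), often used as a measure of mitochondrial content, had 0.03 (SE 0.16, edgeR adjusted p = 0.972) on counts and −0.09 on the log2(TPM + 1) scale, at 193 to 208 TPM.

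Of 7 death effectors released from mitochondria or acting with them, 5 had a log2 fold change above 0 (median 0.10), among them AIFM1 at 0.15 (SE 0.16, edgeR adjusted p = 0.839). Of 9 matrix redox enzymes, 7 did (median 0.16), with GPX4 the most abundant at 1230 to 1471 TPM and a log2 fold change of 0.26 (SE 0.18, edgeR adjusted p = 0.760). Of the 6 tested nucleotide and phosphate carriers other than the ANTs, 4 did (median 0.05), and 0 of 6 did on the log2(TPM + 1) scale. The phosphate carrier SLC25A3, which has also been placed at the pore, was at 465 and 371 TPM against 434 and 364 TPM. Its log2 fold change was 0.06 (SE 0.21, edgeR adjusted p = 0.960). Over all 9 lists, 113 genes were tested and none passed an adjusted p under 0.05 by edgeR, DESeq2 or limma after voom. At an unadjusted p under 0.05, edgeR called 6 higher and 3 lower (3.13% and 4.9% of all tested genes), DESeq2 4 and 3 (3.13% and 4.36%) and limma after voom 4 and 2 (3.17% and 4.46%). The criteria of the study were met by 17 as higher and 4 as lower, against 6.24% and 7.99% of all tested genes.

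**Figure D4:**
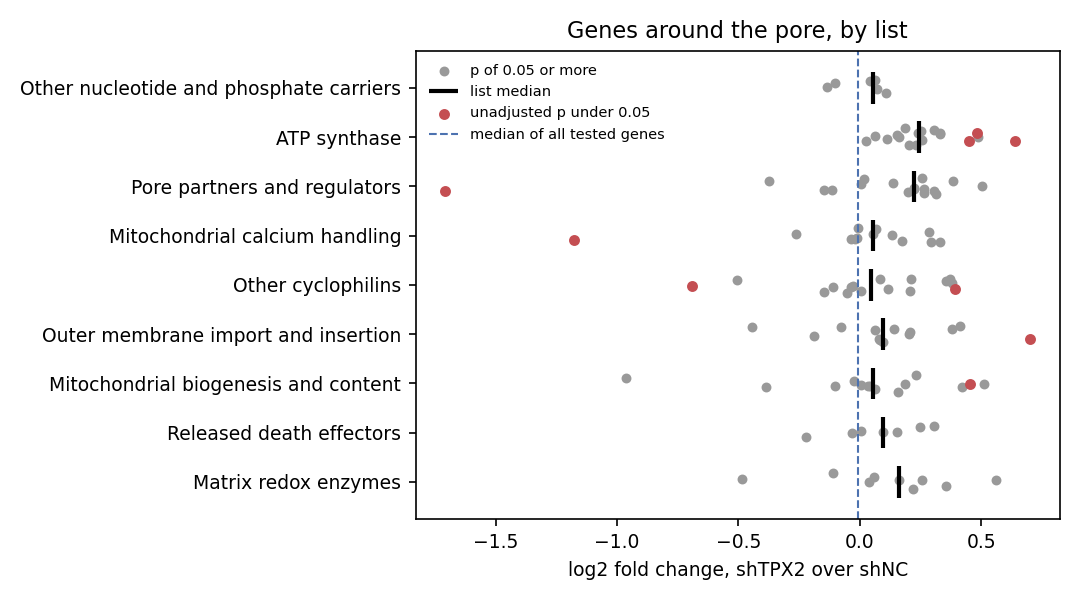
Log2 fold change of shTPX2 over shNC for each tested gene of the 9 lists (1 point per gene, red at an unadjusted edgeR p under 0.05), with black bars for list medians and a dashed line for the median of all tested genes. The ATP synthase genes all lay above 0 (median 0.25), and the red points on the left are CKMT1A, MICU3 and PPIC.

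The neighbours of PPIF on chromosome 10 had log2 fold changes between −0.33 and 0.29. ZMIZ1, 30.95 kb away, had a log2 fold change of −0.04 (SE 0.17, edgeR adjusted p = 0.967), and ZCCHC24, 26.99 kb away on the other side, had −0.33 (SE 0.24, edgeR adjusted p = 0.773). RPS24 and EIF5AL1, the next genes out at 1291 and 157 kb, had 0.29 (SE 0.19, edgeR adjusted p = 0.746) and 0.20 (SE 0.35, edgeR adjusted p = 0.913). None of them passed, and the difference between PPIF and its neighbours was not tested.

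The genes whose levels over the 4 libraries were most like those of PPIF were found among 10304 genes with a mean log2 CPM of at least 3, by the Euclidean distance between centred log2 CPM values. They were FAM111B (distance 0.137), the replicative helicase subunit MCM5 (0.236), the histone gene HIST1H2BK (0.256), SAPCD2 (0.279) and ATAD3B (0.298). ATAD3B encodes a mitochondrial membrane protein, and FAM111B a protease. Their log2 fold changes ran from 0.90 to 1.07 and, as likeness to PPIF chose them, were not tested. With 4 libraries, likeness of this kind reflects mostly the difference between the groups.

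The deposited table also holds the authors' group means, which equal the mean of the 2 libraries per group in 5.24% (shNC) and 4.97% (shTPX2) of genes by TPM (within 0.0051 TPM). Multiplied by 3 for shNC and by 4 for shTPX2 they were whole in hundredths of a TPM (within 0.02 of a hundredth) in 100% of genes and under the sum of the 2 libraries in 0 genes, as means of 3 and of 4 libraries that include these 2 would be. They thus share the libraries on which PPIF was selected and take in values that are not analysed here. By these authors' means PPIF stood at 122 TPM in shNC and 204 TPM in shTPX2, a ratio of 1.67 in place of 2.07. The ratio of SLC25A5 was 0.955 in place of 1.10, on the other side of 1, and the other 5 ratios ran from 0.947 for SLC25A6 to 1.10 for SLC25A4. The small differences in the VDAC and ANT genes were not all of 1 sign in the authors' means.

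**Figure D5:**
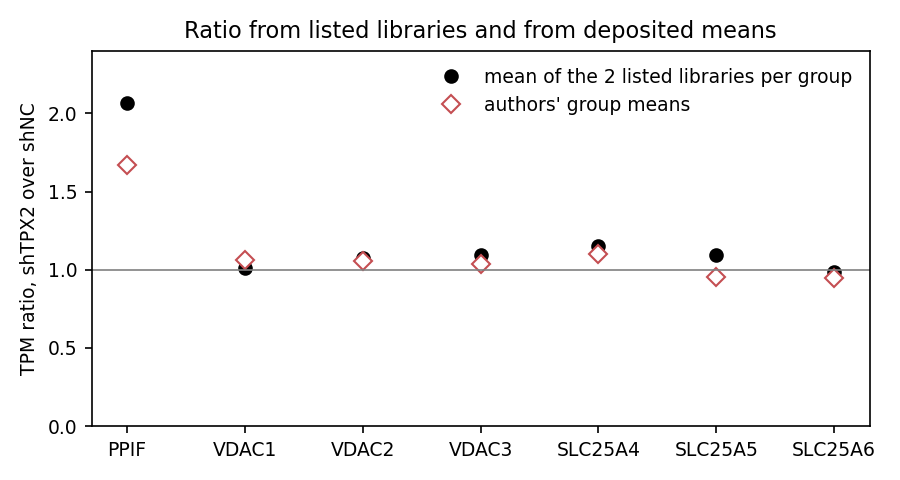
Ratio of TPM in shTPX2 over shNC for the 7 genes, from the 2 libraries per group (black) and from the authors' means in the deposited table (red diamonds). PPIF lay at 2.07 and 1.67, and the other 6 lay between 0.947 and 1.15.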

How the data were processed

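The authors sequenced paired ends of 150 bases. Their methods give SOAPnuke for read cleaning, HISAT2 or Bowtie2 for alignment and RSEM or StringTie for quantification. The submitters' processing notes name HISAT2, featureCounts, DESeq2 and GRCh38. The annotation and the strand setting are not given in the sources used here. Hairpins were delivered by lentivirus. The deposited table holds each gene's expected count, made by the authors from the aligned reads of each library without normalization. It also holds FPKM and TPM, which the authors scaled by gene length and library, and the authors' group means.

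Expected counts were rounded to 0 decimals and tested with edgeR 4.0.16 in R 4.3.3 (filterByExpr, TMM, quasi-likelihood test, Benjamini-Hochberg adjustment over 14048 genes, no covariates). The SE given with edgeR is the size of the log2 fold change divided by the square root of the test's F statistic. limma 3.58.1 after voom and DESeq2 1.42.0 were alternatives. The fit was also run on simulated counts with the same dispersion for all genes. As the real genes differ in spread, that run cannot show how the fit does on these libraries. TPM served for levels, and the deposited FPKM values for implied effective lengths. The TPM scale, limma on log2(TPM + 1), was added after seeing the data.

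The members, the 9 lists and the tests were chosen with earlier results of these data known. Named genes were the members, TPX2, up to 5 genes per list at an unadjusted p under 0.05, the most abundant gene of each list, the 5 genes nearest to PPIF and 2 neighbours on either side. TSPO, HK2, BAX, MCU, CKMT1B, CKMT2, SIRT3 and BAK1 were named in addition, after their values were seen. In the ATP synthase list, 2 genes were matched through older symbols. Promoters are from RefSeq (GRCh38.p14) and cover 6 of the 7 members. The VDAC3 promoter was not used here. Coding sequences are from GENCODE v29.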

Additional observations from a re-analysis of the deposited data

How the results depend on the processing

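Directions were the same under all alternatives run for PPIF (1.04 on the TPM scale, 1.11 to 1.23 with 1 library left out), VDAC1 (0.03 to 0.25), VDAC2 (0.12 to 0.35), VDAC3 (0.17 to 0.35), SLC25A4 (0.24 to 0.42) and SLC25A5 (0.19 to 0.33), the ranges being log2 fold changes with 1 library left out, where the lone library of a group is assumed to vary like the other group. SLC25A6 ran from −0.17 to 0.44. On the TPM scale the values were 0.0131 (VDAC1), 0.10 (VDAC2), 0.13 (VDAC3), 0.18 (SLC25A4), 0.13 (SLC25A5) and 0.0018 (SLC25A6). Those of VDAC1, VDAC2, VDAC3, SLC25A4 and SLC25A5 lay below the ranges with 1 library left out. Genes at an unadjusted p under 0.05 were 440 higher and 688 lower, 211 to 930 and 310 to 1159 with 1 library left out, most without shNC 1 and fewest without shTPX2 2. The higher count was 288 with library size only and 217 on the TPM scale. At an adjusted p the counts of 0 became 33 higher and 78 lower by DESeq2, 1 lower on the TPM scale, and 0 to 5 higher and 0 to 20 lower with 1 library left out. The criteria of the study gave 876 higher (578 with library size only) and 1122 lower, with 495 to 1546 and 523 to 1969. With library size only, the list medians were 0.17 (ATP synthase), −0.0299 (cyclophilins), 0.0314 (outer membrane), −0.0168 (biogenesis) and 0.0975 (redox), and upper-quartile factors gave 0.0148 for the cyclophilins. On the TPM scale they were −0.0671 (carriers), 0.12 (ATP synthase), 0.0761 (pore partners), −0.0534 (calcium), −0.0458 (cyclophilins), −0.0158 (outer membrane), −0.0569 (biogenesis), 0.0006 (death effectors) and 0.0421 (redox), with −0.10 for all genes. With 1 library left out they ran from −0.0355 to 0.12 (carriers), −0.0246 to 0.25 (calcium), 0.0643 to 0.15 (cyclophilins), 0.0468 to 0.18 (outer membrane), 0.029 to 0.14 (biogenesis), 0.0789 to 0.20 (death effectors) and 0.16 to 0.20 (redox). Genes above 0 on the TPM scale numbered 0 of 6 (carriers), 15 of 18 (ATP synthase), 10 of 17 (pore partners) and 5 of 13 (calcium). The counts were 7 of 16 (cyclophilins), 6 of 13 (outer membrane), 5 of 14 (biogenesis), 4 of 7 (death effectors) and 5 of 9 (redox). Over all tested genes the count was 4850 of 14048. Single genes changed sign too: SLC25A3 (−0.0072 with library size only, −0.0637 on the TPM scale, −0.12 to 0.26 with 1 library left out), MTCH1 (−0.0092, −0.0391 and −0.0688 to 0.20 likewise), CS (−0.0378 with library size only and −0.0913 on the TPM scale), GHITM (−0.0681 to 0.36), ZMIZ1 (−0.15 to 0.0743) and EIF5AL1 (−0.13 to 0.63). The causes were not tested. With the replicate number as a block, 583 genes were higher and 770 lower at an unadjusted p under 0.05, none at an adjusted one, and PPIF stood at 1.17. The replicate 1 minus replicate 2 differences of shNC correlated with those of shTPX2 at 0.18 over the tested genes. The labels do not tie the numbers, so same-numbered libraries were not taken as pairs. The precision is that of 2 libraries per group.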

Other observations

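By the authors' group means, 16 of the 18 ATP synthase genes had a higher TPM in shTPX2 than in shNC. The same held for 5487 of the 13167 genes with a mean of at least 1 TPM in shNC. The median log2 ratio of TPM + 1 was 0.28 for the ATP synthase genes, against −0.06 over those 13167. Genes under 1 TPM in shNC were left out whatever their level in shTPX2. For the 6 VDAC and ANT genes the same count was 4 of 6, with a median of 0.06. These means share the libraries of the comparison, include values not analysed here and were not tested.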
